A study of Mus musculus with 29 samples.

Results

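Primary abdominal neuroblastomas were compared with total bone marrow in TH-MYCN mice of strain 129X1/SvJ. TH-MYCN mice carry a MYCN transgene under the promoter of tyrosine hydroxylase, the enzyme that opens catecholamine synthesis, so the transgene is driven in cells of the sympathetic lineage. The comparison used all arrays of the series, 29 of 29. They were 24 tumours (7 labelled wild type for caspase-8 and 17 labelled deficient) and 5 marrow samples (2 wild type and 3 deficient). The labels give the TH-MYCN genotype for the marrow samples too, so the transgene was shared by all 4 groups and no sample came from a mouse without it. The sources used here state neither how the caspase-8 deficiency was made nor the age of the animals. Nothing in the labels says that every sample came from a separate animal, so a p-value reflects only how these samples vary, which may be technical. Each gene was read from its brightest probe set (by mean across the 29 arrays), and a gene was kept for description when its mean log2 signal reached 7 in at least 1 tissue. This left 8437 of 18193 genes (46.4%). Counts over gene lists and families also take in their measured members below 7, and the number at level 7 stands beside each list. Many members at level 7 passed that rule through the tissue where they are high. A larger median difference over those members is therefore partly built in, and it adds no evidence for a list.

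Neuroblastoma arises from sympathoadrenal precursors of the neural crest, and its cells keep a neural programme of lineage transcription factors, catecholamine enzymes, dense-core granules and neurites. Total bone marrow holds granulocytes and their precursors, erythroblasts, developing B cells, monocytes, megakaryocytes and a small number of stem cells and stromal cells. Marrow is also a common site of neuroblastoma spread, where neural transcripts such as Th are used clinically to detect tumour cells. In bulk tissue, fewer cells of a type and less RNA per cell cannot be told apart, and this holds for every difference below.

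Promoters were searched for short sequences known to be read by lineage factors. The promoters printed are examples that hold the element named with them. They were not chosen as the genes of largest difference, so they do not show how common an element is. RefSeq gave 300-base promoters (250 bases before to 50 bases after the transcription start, GRCm38.p6) for 14452 of the genes measured. The cAMP response element (CRE) TGACGTCA is bound by CREB-family factors and is known from catecholamine and granin genes. It was found, on either strand, in 1.79% of all 32851 promoters and in 2.92% of the measured genes. Of the 282 genes that were at least 16-fold higher in tumours and had a promoter entry, 6.38% held it, against 0.948% of 211 genes at least 16-fold lower and 5.12% of 1270 equal genes. Equal genes are those with a mean of 7 or more in both tissues and a 95% interval of the tissue difference within 0.5 log2 units of 0. In the list of dense-core granule genes it was found for 5 of 18 genes with a promoter entry. List shares of this kind take in genes that were not measured. In every set of genes, a gene with several promoters counts once, if any of them holds the element. The 282, 211 and 1270 genes had 415, 283 and 1606 promoters, and the 14452 measured genes had 18109. A set with more promoters for each gene had more sequence searched, and no share here or below was adjusted for this. Th (GRCm38.p6 chr7:142899946-142900245, minus strand) and Chgb, which encodes the granule protein chromogranin B (chr2:132781392-132781691, plus strand), are shown with the element in capitals. It starts 45 bases before the start of Th and 72 bases before that of Chgb.
Th: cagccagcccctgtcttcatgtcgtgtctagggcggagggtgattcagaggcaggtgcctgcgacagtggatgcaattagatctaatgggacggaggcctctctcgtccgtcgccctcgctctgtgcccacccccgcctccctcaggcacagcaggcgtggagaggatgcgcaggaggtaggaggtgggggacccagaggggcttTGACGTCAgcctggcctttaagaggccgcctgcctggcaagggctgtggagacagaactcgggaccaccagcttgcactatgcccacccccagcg
Chgb: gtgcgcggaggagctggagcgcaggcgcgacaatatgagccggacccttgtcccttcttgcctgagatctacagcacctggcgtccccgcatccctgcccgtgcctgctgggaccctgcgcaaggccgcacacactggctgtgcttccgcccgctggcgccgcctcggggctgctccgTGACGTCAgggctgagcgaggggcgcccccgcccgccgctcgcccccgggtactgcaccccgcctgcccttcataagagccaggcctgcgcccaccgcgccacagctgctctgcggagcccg

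PU.1, encoded by Spi1, is the ETS-family factor of myeloid cells and binds GAGGAAGT. This sequence was present in 3.20% of all promoters, in 3.47% of the measured genes, in 12.3% of genes at least 16-fold lower in tumours in 2.84% of those at least 16-fold higher and in 3.23% of equal genes. Among genes of the primary granules of neutrophil precursors, 4 of 11 with a promoter entry held it. Mpo, for the granule enzyme myeloperoxidase (chr11:87793534-87793833, plus strand), and Elane, for neutrophil elastase (chr10:79886062-79886361, plus strand), carry it 224 and 85 bases before the start, in capitals below.
Mpo: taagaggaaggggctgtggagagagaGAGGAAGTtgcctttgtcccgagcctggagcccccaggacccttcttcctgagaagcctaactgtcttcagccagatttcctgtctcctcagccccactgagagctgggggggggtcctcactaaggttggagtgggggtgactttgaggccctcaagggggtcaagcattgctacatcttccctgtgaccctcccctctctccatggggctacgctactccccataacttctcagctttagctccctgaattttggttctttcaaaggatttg
Elane: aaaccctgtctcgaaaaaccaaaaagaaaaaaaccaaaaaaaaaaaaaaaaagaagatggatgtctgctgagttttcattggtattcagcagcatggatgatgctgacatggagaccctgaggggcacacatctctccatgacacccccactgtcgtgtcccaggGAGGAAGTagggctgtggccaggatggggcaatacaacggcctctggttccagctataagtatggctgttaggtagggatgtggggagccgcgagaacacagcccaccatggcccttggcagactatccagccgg

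GATA factors bind AGATAAG, read as CTTATCT on the other strand. It was in 3.04% of all promoters, in 2.84% of the measured genes, in 8.53% of genes at least 16-fold lower in tumours in 3.19% of those at least 16-fold higher and in 1.97% of equal genes. The erythroid list had it for 6 of 19 genes with a promoter entry. Epb42, encoding a protein of the red cell membrane skeleton (chr2:121036828-121037127, minus strand), and Epor, the erythropoietin receptor (chr9:21963527-21963826, minus strand), hold it 227 and 55 bases before the start.
Epb42: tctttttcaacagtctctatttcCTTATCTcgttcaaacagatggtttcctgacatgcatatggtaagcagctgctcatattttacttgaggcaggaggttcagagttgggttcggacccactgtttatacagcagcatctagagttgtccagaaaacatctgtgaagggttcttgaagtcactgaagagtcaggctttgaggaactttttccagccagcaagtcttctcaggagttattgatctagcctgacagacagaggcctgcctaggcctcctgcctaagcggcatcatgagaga
Epor: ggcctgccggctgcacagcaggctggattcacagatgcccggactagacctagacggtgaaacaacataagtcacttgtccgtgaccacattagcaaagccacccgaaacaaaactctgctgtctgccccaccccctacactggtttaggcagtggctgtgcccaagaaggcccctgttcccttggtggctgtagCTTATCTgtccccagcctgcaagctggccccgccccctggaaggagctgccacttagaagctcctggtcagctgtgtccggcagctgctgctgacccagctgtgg

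Elements found in many promoters were counted for comparison. The E-box CACGTG, bound by dimers of MYC or MYCN with MAX, was in 7.15% of all promoters, 10.2% of the measured genes, 9.93% of genes at least 16-fold higher, 7.58% of those at least 16-fold lower and 12% of equal genes. In the list of MYC targets 6 of 21 genes with a promoter entry held it, and the promoter of Cdk4, the kinase partner of the D cyclins (chr10:127063285-127063584, plus strand), held it 4 times. A general ETS element, CCGGAAG, was in 31.3% of equal genes. It was in 5.32% and 5.21% of genes at least 16-fold higher and lower, and in 15% of the measured genes. The E-box CAGCTG, read by bHLH factors, was in 18.8% of the measured genes, 25.5% of those at least 16-fold higher, 23.2% of those at least 16-fold lower and 13.7% of equal genes. The GC box GGGCGG, a measure of base composition, was in 57.3% of the measured genes and 71.5% of equal genes. It was in 66.7% of genes at least 16-fold higher and 39.3% of those at least 16-fold lower. The part of base composition in the other shares was not tested. The other elements searched were the EBF element, with 1.77% of genes at least 16-fold higher, 1.90% of those at least 16-fold lower and 1.10% of equal genes, the CACCC element CCACACCC (3.19%, 8.06% and 3.78%), the TATA box TATAAA (13.8%, 19% and 7.64%) and the CCAAT box CCAAT (44.7%, 37.9% and 43.8%). The C/EBP element TTGCGCAA was in 0.270% of the measured genes and in no gene of either 16-fold set. These are matches of letters and not binding sites.
Cdk4: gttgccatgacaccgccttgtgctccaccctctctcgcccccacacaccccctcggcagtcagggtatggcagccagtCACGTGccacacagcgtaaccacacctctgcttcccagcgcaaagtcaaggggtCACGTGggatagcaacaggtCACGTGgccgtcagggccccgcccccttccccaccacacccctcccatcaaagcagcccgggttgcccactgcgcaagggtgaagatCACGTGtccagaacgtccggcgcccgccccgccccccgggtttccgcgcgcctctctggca

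Across the whole set, arrays of 1 tissue resembled each other closely. Pearson correlations over all probe sets other than controls were 0.969 to 0.993 between tumours and 0.964 to 0.990 between marrow samples. They were 0.805 to 0.865 between a tumour and a marrow sample. Control probe sets showed a 3′ minus 5′ signal of 0.719 ± 0.177 log2 units (SD, n = 24) in tumours and 0.552 ± 0.103 (SD, n = 5) in marrow, a measure of RNA integrity that overlapped between tissues. The single probe set of Casp8 had a mean of 5.88 ± 0.57 (SD, n = 7) in tumours labelled wild type, and the mean of those labelled deficient, 5.62 ± 0.44 (SD, n = 17), overlapped with it. No source used here states which part of the gene is lost, so this probe set does not check the genotype labels.

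Tissue differences were wide and ran both ways. A limma model with genotype as a covariate called 14022 of 18193 genes at an adjusted p under 0.05, 77.1% of those tested, so calls below also had to reach a difference of 2-fold (1 log2 unit). By that rule 3078 genes (16.9%) were higher and 2306 (12.7%) lower in tumours. Without overlap between any tumour and any marrow sample, 3796 genes (20.9%) were higher and 3081 (16.9%) lower. Counts of members below are to be read against these shares. Higher genes made up 57.2% of the 2-fold calls, but 43.3% (2362 higher, 3097 lower) when every array was centred on its median gene, and 42.8% (2341 and 3128) when centred on ribosomal protein and proteasome genes. Centring lowered every difference by 0.29 and 0.30 log2 units, and the median over all genes went from -0.10 to -0.39 and -0.40. Directions of differences smaller than this are therefore set by the scaling.

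Of the 8437 kept genes, 5392 (63.9%) reached 7 in both tissues, 1821 in tumours only and 1224 in marrow only. Genes that reached 7 in 1 tissue only had to differ to some degree, so their 1477 and 997 calls are a description. Among the genes at 7 in both tissues, 817 were called higher and 600 lower, and 1523 had a 95% interval within 0.5 log2 units of 0. Differences of at least 16-fold (4 log2 units) were found for 367 kept genes higher and 270 lower in tumours. At the edge of the rule, Inip, Fign and Necab2 lay just inside, each with a higher-tissue mean of 7.0 after rounding. Ctnnal1, Dstyk and Exoc8 lay just outside, each also at 7.0 after rounding.

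**Figure D1:**
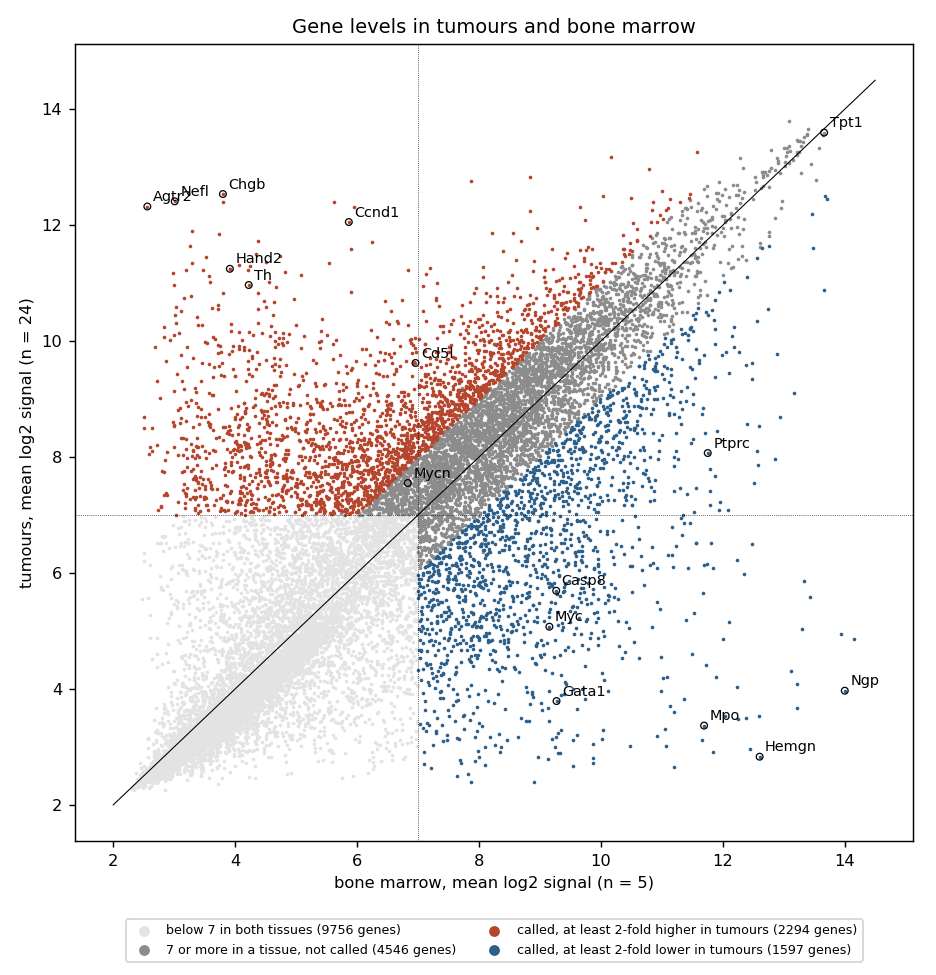
Mean log2 signal of 18193 genes in 24 tumours (vertical axis) against 5 marrow samples (horizontal axis), each point 1 gene, with dotted lines at a level of 7 and a solid line of equal level. The 2294 red genes were called at least 2-fold higher and the 1597 blue genes at least 2-fold lower in tumours, and both colours reach down to marrow or tumour means under 3.

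Agtr2, the type 2 angiotensin receptor, had values of 2.56, 2.54, 2.51, 2.46 and 2.73 in the 5 marrow samples. In the 24 tumours its lowest value was 11.92, its median 12.25 and its highest 12.72. No tumour came near any marrow sample, and the difference was 9.76 log2 units (SE 0.12, 866-fold, limma adjusted p = 1.48e-33). Nefl, the light chain of neurofilaments, stood at 3.40, 2.95, 2.93, 3.15 and 2.60 in marrow and at 11.96 (lowest), 12.49 (median) and 12.76 (highest) in tumours, a difference of 9.40 (SE 0.12). Chgb, whose promoter holds the CRE shown above, had 3.61, 3.44, 3.78, 4.13 and 4.04 in marrow against 12.15, 12.54 and 12.90 in tumours, a difference of 8.73 (SE 0.12). The narrow spread in tumours, with an SD of 0.22 to 0.25 for these 3 genes, is small beside the gap. The remaining genes of the 12 largest differences were Isl1 (8.60), a LIM homeodomain factor of sympathetic neurons, Fscn1 (8.60), an actin-bundling protein, Nefm (8.38), the medium neurofilament chain, Sox11 (8.17), Ddc (8.12), the decarboxylase that makes dopamine, Stmn2 (8.06), a microtubule regulator of neurites, Tfap2b (8.04), Snap25 (7.99), a fusion protein of synaptic vesicles, and Cpe (7.92), which trims neuropeptides. None of the 12 overlapped between tissues, which their choice by size of difference in these same values all but ensured.

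**Figure D2:**
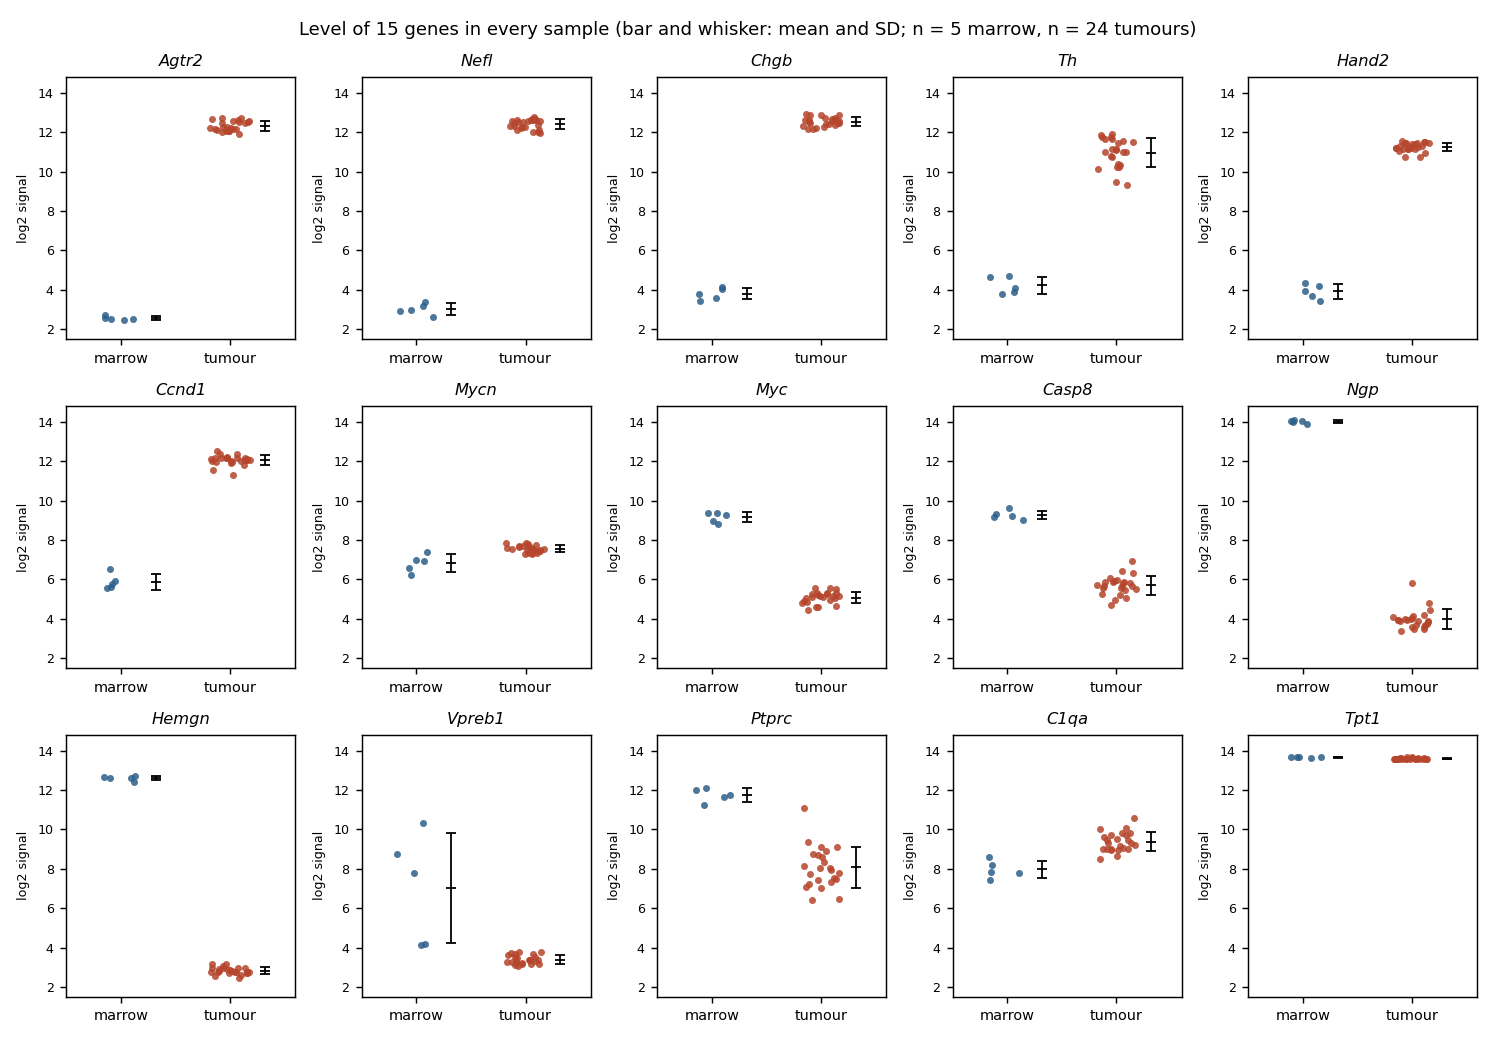
Log2 signal of 15 genes in each of 5 marrow samples (blue) and 24 tumours (red), with mean and SD beside the points. Agtr2, Nefl, Chgb, Th, Hand2 and Ccnd1 are high in every tumour, Ngp and Hemgn in every marrow sample, Vpreb1 runs from 4.11 to 10.31 within marrow, and Tpt1 is level.

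Transcription factors of the sympathoadrenal lineage were mostly higher in tumours. Of 18 measured members, 15 of them at level 7, 16 were called higher and 0 lower, with a median difference of 4.22 against -0.10 over all genes. Hand2, a bHLH factor needed for noradrenergic differentiation, had 4.34, 4.18, 3.93, 3.69 and 3.43 in marrow and 10.75, 11.25 and 11.55 (lowest, median, highest) in tumours, a difference of 7.34 (SE 0.12). Insm1 (7.05, SE 0.16) and Insm2 (7.02, SE 0.09), zinc finger factors of neuroendocrine cells, and Eya1 (6.97, SE 0.11) followed. Phox2a, a homeodomain factor that activates Dbh, was 4.50 higher (SE 0.20). The mean over the 18 genes was 8.84 to 9.63 in tumours and 4.49 to 4.67 in marrow, so the samples did not overlap. Gata3, another factor of this circuit, varied more among tumours (lowest 5.57, median 9.04, SD 0.88, n = 24) than Hand2 (SD 0.22).

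Catecholamine genes did not move as 1 block. Of 13 measured members, 9 at level 7, 8 were called higher and 2 lower, with a median of 1.03, or 2.25 over the members at level 7. Th, the rate-limiting enzyme, had 4.70, 4.09, 4.66, 3.87 and 3.79 in marrow and 9.33, 11.06 and 11.91 in tumours, a difference of 6.79 (SE 0.32, 110-fold, limma adjusted p = 2.99e-18). Cyb561, which supplies electrons to the granule, was 5.93 higher (SE 0.17), the vesicular monoamine transporter Slc18a2 3.46 higher (SE 0.26) and the breakdown enzyme Maoa 2.25 higher (SE 0.11). Dbh, which makes noradrenaline, was 1.99 higher (SE 0.26), and its lowest tumour (6.49) lay below its highest marrow sample (6.55). The 2 lower members make the tetrahydrobiopterin cofactor of Th. Gch1, the first enzyme of that pathway, had 11.15, 10.73, 11.23, 11.20 and 10.88 in marrow and 8.26, 9.67 and 10.69 in tumours, a difference of -1.44 (SE 0.26). Pts, the next enzyme, differed by -1.27 (SE 0.11). Every tumour was below every marrow sample for both genes.

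Dense-core granule proteins and neuropeptides had 14 of 19 measured members higher and 0 lower (13 at level 7, median 3.03, or 4.97 over those at level 7). Beside Chgb and Cpe, the leading members were Scg5 (6.67, SE 0.13), a chaperone of prohormone convertase, Chga (5.86, SE 0.23), which encodes chromogranin A, and Scg3 (5.85). Npy, which encodes neuropeptide Y, differed by 0.98 and its values overlapped between tissues.

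The neuronal cytoskeleton list had the largest median of all lists, 6.03, with 25 of 28 measured members higher and 0 lower (23 at level 7). Tubb3, the neuronal beta tubulin, was at 3.32, 2.86, 2.88, 2.86 and 3.86 in marrow and at 10.19, 10.76 and 11.28 in tumours, a difference of 7.59 (SE 0.15). The kinesin Kif5c was 7.55 higher (SE 0.07) and the ubiquitin hydrolase Uchl1 7.45 higher (SE 0.10). Stmn1, a stathmin of dividing cells in many tissues, differed by 0.88 and did not reach the 2-fold rule. List means were 9.63 to 10.10 in tumours and 4.71 to 4.88 in marrow.

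Genes for transmitter release and excitability followed. In the synaptic vesicle list 18 of 24 members were higher and 0 lower (17 at level 7, median 3.13, or 1.81 with the mean of all probe sets of a gene), led by Snap25, the calcium sensors Syt4 (5.93, SE 0.17) and Syt1 (5.40, SE 0.16) and the vesicle GTPase Rab3c (4.97, SE 0.17). Nsf, which takes fusion complexes apart in every cell, differed by 0.13. Among ion channels and transmitter receptors 16 of 20 were higher and 0 lower (11 at level 7, median 2.86, or 1.61 with that mean), led by the calcium channel subunit Cacna2d1 (7.05, SE 0.11) and the sodium channel Scn9a (5.48, SE 0.19). Neuronal RNA-binding proteins had 13 of 16 higher and 0 lower (13 at level 7, median 4.11), with Celf4 at 6.33 (SE 0.11), Elavl4 at 6.25 (SE 0.12) and Elavl2 at 6.04 (SE 0.17). Axon guidance and neural adhesion genes had 24 of 28 higher and 0 lower (18 at level 7, median 3.31, or 1.79 with that mean). Slit2, a repellent of growing axons, was 7.34 higher (SE 0.19) and the neural cadherin Cdh2 5.24 higher (SE 0.19).

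Imprinted growth genes were among the highest members of the tumour side. In the oncofetal and imprinted list 10 of 16 members were higher and 1 lower (8 at level 7, median 2.80, or 5.52 over those at level 7). Peg3 was 7.76 higher (SE 0.13), Dlk1, a Notch-related surface protein of precursor cells, 7.02 (SE 0.13) and Ndn 6.37 (SE 0.14), with Nnat (6.15) and Meg3 (4.89) next. Among receptor kinases and co-receptors linked to neuroblastoma, 4 of 12 were higher and 3 lower (4 at level 7, median 0.50). That median was 3.17 over the members at level 7, 0.21 and 0.20 under the centrings, 0.13 with the mean of all probe sets and 0.19 in wild-type samples. Alk, mutated in hereditary neuroblastoma, was 3.63 higher (SE 0.19), the GDNF-family receptor kinase Ret 3.53 (SE 0.35) and its co-receptor Gfra3 2.80 (SE 0.30). Igf1r, the insulin-like growth factor receptor, differed by -1.84 (SE 0.19).

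**Figure D3:**
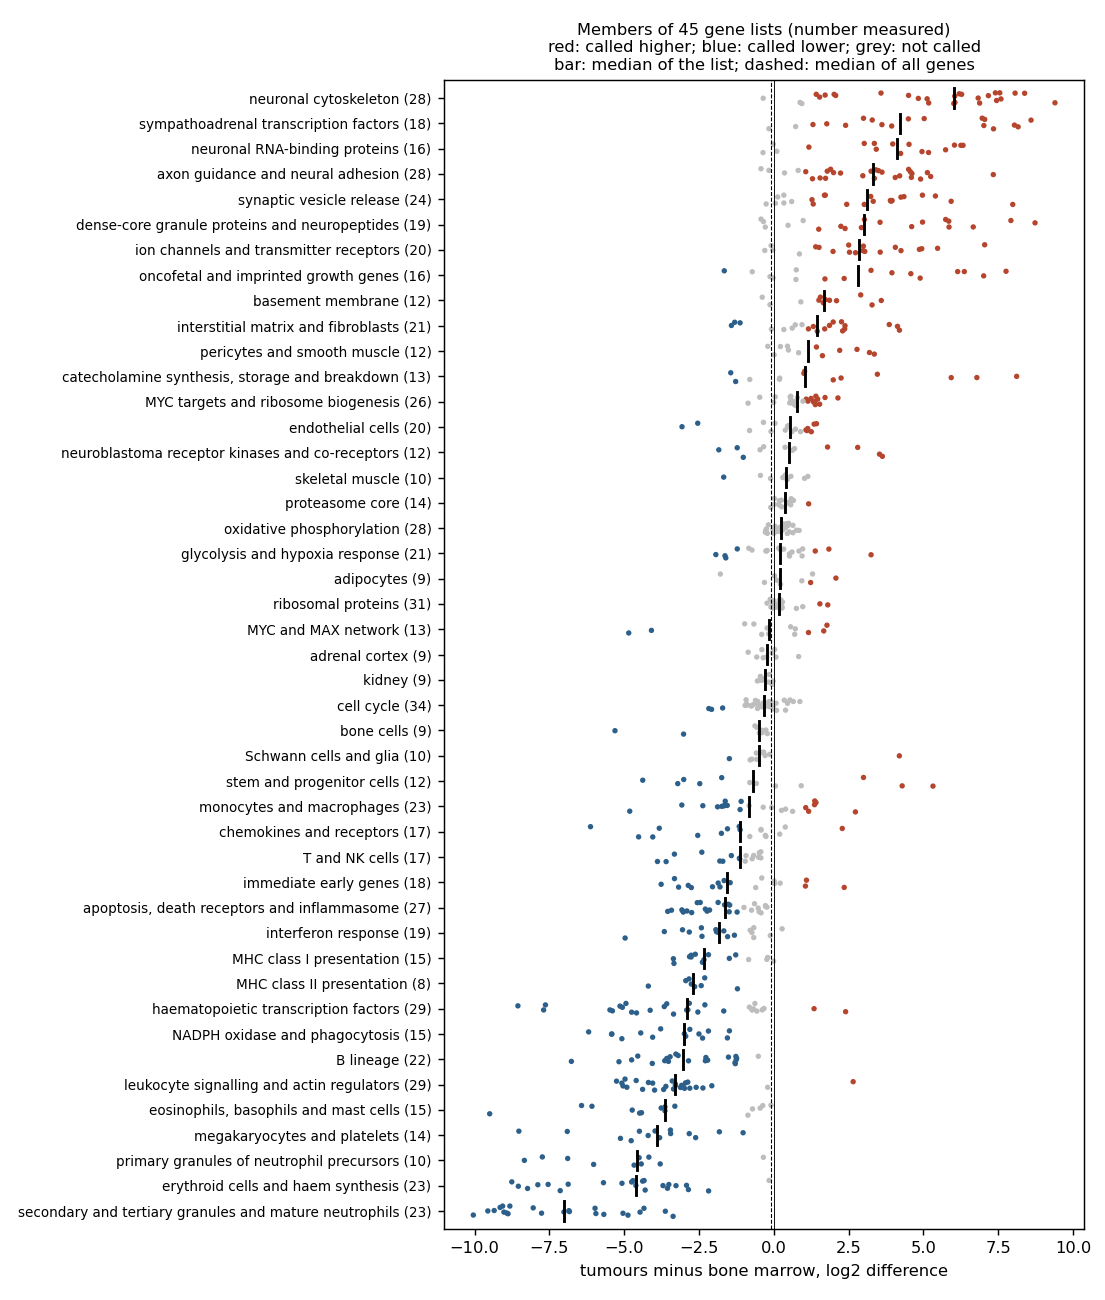
Tumour minus marrow log2 difference of each measured member (points) of 45 gene lists, ordered by median (black bars), with the median of all genes dashed. Neural lists lie to the right, with medians up to 6.03, lists of marrow lineages lie to the left, down to -7.01, and ribosomal protein, proteasome and oxidative phosphorylation genes lie near 0.

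Stromal genes were higher in tumours by less, and with more overlap. Interstitial matrix and fibroblast genes had 13 of 21 members higher and 3 lower (15 at level 7, median 1.45). Col3a1, a fibrillar collagen, had 6.67, 6.16, 7.15, 6.88 and 5.46 in marrow and 8.28, 10.85 and 12.26 in tumours, a difference of 4.20 (SE 0.39). Fbln1 (4.13, SE 0.12) and Postn (3.86, SE 0.36), matrix glycoproteins, came next. Col5a1 (-1.41, SE 0.31), Fn1 (-1.13, SE 0.26) and Pdgfra were lower, with overlapping values. Basement membrane genes had 9 of 12 higher and 0 lower (7 at level 7, median 1.69, or 1.07 with the mean of all probe sets), with Col4a1 at 3.59 (SE 0.32). Pericyte and smooth muscle genes had 6 of 12 higher and 0 lower (7 at level 7, median 1.13, or 0.51 in wild-type samples alone), with Rgs5, a marker of pericytes, at 3.36 (SE 0.28). The list mean of matrix genes ran from 6.34 to 9.01 over tumours and from 5.65 to 6.44 over marrow samples.

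Endothelial genes did not separate the tissues as a list. Of 20 measured, 5 at level 7, 6 were higher and 2 lower, with a median of 0.56. No member was higher without overlap, and 2 were lower without overlap. Over the 5 members at level 7 the median turned to -0.81, and it was 0.27 and 0.26 under the centrings and 0.30 in wild-type samples alone. The lower members were Vwf (-3.07, SE 0.21), the von Willebrand factor, and Erg (-2.54), an ETS-family factor. Both are known from megakaryocytes too, whose list had a median of -3.89, and the part of those cells in the difference was not tested. Vwf had 7.34, 8.39, 8.86, 8.72 and 8.65 in marrow and 4.59 to 6.36 in tumours.

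Markers of neighbouring tissues were low in most samples. Adrenal cortex genes had 0 of 9 called in either direction (1 at level 7, list means 4.23 to 4.48 in tumours, 4.47 to 4.56 in marrow), and kidney genes 0 of 9 (0 at level 7, 3.62 to 3.84 against 3.91 to 4.10). Schwann cell genes had 1 of 10 higher and 1 lower (3 at level 7, median -0.49), the higher one being Pmp22, a myelin protein also found in other cells (4.20, SE 0.24). Skeletal muscle genes had 0 of 10 higher and 1 lower, with 0 at level 7 by the tissue mean. Their list mean still reached 9.21 in deficient tumour 11, 7.95 in wild-type tumour 3 and 6.97 in wild-type tumour 7, against a tumour median of 4.22. The median difference of the muscle list, 0.39, turned to -0.19 without these 3 tumours. Fat cell genes had 2 of 9 higher and 0 lower (3 at level 7, median 0.22, turning to -0.067 and -0.075 under the centrings), with list means from 4.26 to 8.06 in tumours and from 5.34 to 5.88 in marrow. Bone cell genes had 0 higher and 2 of 9 lower (median -0.48, or -3.01 over the 3 at level 7). Ibsp, a protein of mineralising bone, stood at 7.69, 6.58, 8.16, 8.92 and 7.72 in marrow and 2.24 to 2.76 in tumours. Left out together, the 3 tumours with muscle signal changed the 2-fold counts to 3056 higher and 2293 lower.

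Granule proteins of neutrophils made the largest differences on the marrow side. In the list of secondary and tertiary granules and mature neutrophils, 23 of 23 members were lower in tumours and none overlapped (22 at level 7, median -7.01). Ngp, a granule protein of neutrophil precursors, had 13.99, 14.08, 14.03, 13.88 and 14.02 in marrow and 3.39, 3.91 and 5.84 in tumours, a difference of -10.04 (SE 0.22, 1053-fold, limma adjusted p = 1.21e-26). Ltf, which encodes lactoferrin, differed by -9.56 (SE 0.14), the calprotectin subunits S100a9 and S100a8 by -9.34 (SE 0.51) and -9.02 (SE 0.54), and Camp, the cathelicidin, by -8.82 (SE 0.10). Chil3 (-9.15, SE 0.65), a chitinase-like protein, Lcn2 (-9.06, SE 0.27), which binds bacterial siderophores, Olfm4 (-8.92, SE 0.13), a granule glycoprotein, and Ifitm6 (-8.88, SE 0.19) were also among the 12 largest differences of this direction. S100a8 ranged from 3.12 to 8.02 among tumours, while no marrow sample was below 13.87. In the primary granule list 9 of 10 were lower and 0 higher (10 at level 7, median -4.58). Mpo had 11.27, 11.83, 11.86, 11.71 and 11.79 in marrow and 3.02, 3.34 and 3.68 in tumours, a difference of -8.33 (SE 0.10). Elane differed by -4.50 (SE 0.10). Ctsc, the protease that activates granule enzymes and works in many cell types, was not called (-0.35).

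Phagocyte machinery was lower as well, with 15 of 15 members of the NADPH oxidase and phagocytosis list lower (14 at level 7, median -2.99). Ncf1 (-6.19, SE 0.20), an oxidase subunit, and Itgam (-5.42, SE 0.12), the CD11b integrin chain, led, and Cybb, the membrane subunit, differed by -4.45 (SE 0.33). Here 12 of 15 did not overlap. Eosinophil, basophil and mast cell genes had 10 of 15 lower and 0 higher (8 at level 7, median -3.64). Prg2, the eosinophil major basic protein, differed by -9.49 (SE 0.10), the peroxidase Epx by -6.42 (SE 0.14) and the basophil protease Mcpt8 by -6.08 (SE 0.16).

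Erythroid and haem synthesis genes had 22 of 23 members lower and 0 higher (22 at level 7, median -4.61), all 22 without overlap. Hemgn, a nuclear protein of erythroid and progenitor cells outside that list, had 12.43, 12.61, 12.65, 12.64 and 12.70 in marrow and 2.43, 2.78 and 3.17 in tumours, a difference of -9.79 (SE 0.08). Car1 (-8.75, SE 0.08) and Car2 (-7.88, SE 0.35) are carbonic anhydrases of red cells, Rhag (-8.54, SE 0.07) is an Rh-complex protein and Slc4a1 (-7.54, SE 0.52) the anion exchanger. Epb42 (-5.69, SE 0.08) and Epor (-4.61, SE 0.08), shown above with their GATA sequences, were lower in every tumour. Red cell genes also varied among tumours. Alas2, the erythroid enzyme of the opening step of haem synthesis, ranged from 5.42 to 11.15 in tumours, and Hbb-b2, a beta globin, from 4.83 to 10.49, and the list mean was highest (6.99) in deficient tumour 10. Globin probe sets can share signal between near-identical genes.

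Megakaryocyte genes had 14 of 14 members lower without overlap (11 at level 7, median -3.89), led by Ppbp (-8.52, SE 0.29), a platelet chemokine. B-lineage genes had 21 of 22 lower and 0 higher (15 at level 7, median -3.02), but with a wide spread between marrow samples. Vpreb1, the surrogate light chain of pre-B cells, had 4.19 and 8.76 in the wild-type and 7.77, 10.31 and 4.11 in the deficient marrow samples, and 3.04, 3.36 and 3.79 in tumours, a difference of -3.64 (SE 0.51). Wild-type sample 1 and deficient sample 3 lay within 1 log2 unit of the tumours. The B-lineage list means of the 5 marrow samples were 7.09, 7.86, 7.81, 8.68 and 7.12. Jchain (-6.76, SE 0.70), of antibody-secreting cells, and Ms4a1 (-4.75, SE 0.28), which encodes CD20, were other members. T and NK cell genes had 9 of 17 lower and 0 higher (3 at level 7, median -1.14, or -3.32 over those at level 7).

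**Figure D4:**
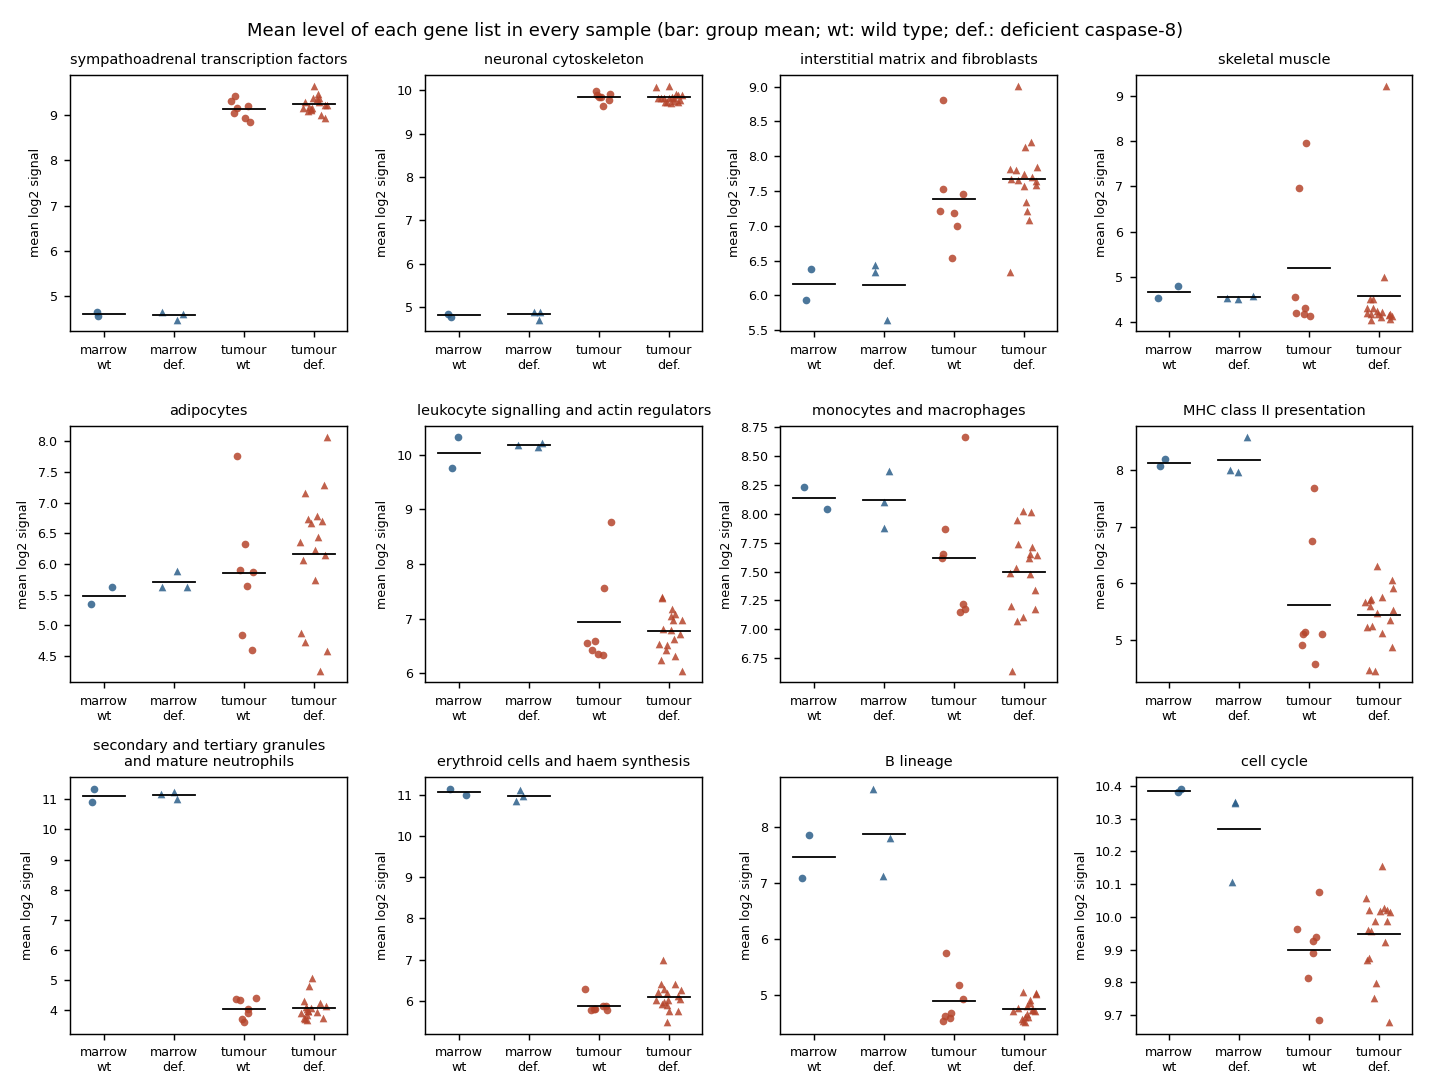
Mean log2 signal of 12 gene lists in every sample, by tissue and caspase-8 genotype (wt, wild type; def., deficient), with group means as bars. The neural and granulocyte lists separate the tissues with little spread, whereas muscle, fat, leukocyte and MHC class II lists vary between tumours, with muscle means up to 9.21 and leukocyte signalling means up to 8.77.

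Haematopoietic transcription factors were lower for 20 of 29 members and higher for 2 (22 at level 7, median -2.91). Nfe2 (-8.55, SE 0.13), Klf1 (-7.69, SE 0.09) and Tal1 (-7.63, SE 0.13), of the erythroid and megakaryocytic lineages, led. Gata1, the erythroid GATA factor, had 9.55, 9.23, 9.52, 9.18 and 8.88 in marrow and 3.38 to 4.04 in tumours, a difference of -5.48 (SE 0.10). The 2 higher members were Gata2 (2.40, SE 0.30), which also belongs to the sympathoadrenal list, and Bcl11a (1.35, SE 0.14), a zinc finger factor of B cells and of neurons. The stem and progenitor list split, with 3 of 12 higher and 5 lower (8 at level 7, median -0.69, or -0.37 over those at level 7 and -1.27 with the probe set highest in either tissue). Hlf, a bZIP factor of haematopoietic stem cells and brain, was 5.32 higher (SE 0.18), at 8.84, 10.04 and 10.66 in tumours against 4.30, 5.05, 4.82, 4.28 and 4.80 in marrow. Mecom was 4.29 higher (SE 0.29) and Sox4 was higher too. Slamf1 (-4.38, SE 0.11), Cd48 and Flt3, surface markers of blood progenitors, were lower.

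Leukocyte signalling and actin regulators had 27 of 29 members lower and 1 higher (28 at level 7, median -3.29). Ptprc, the pan-leukocyte phosphatase CD45, had 11.25, 12.10, 11.64, 11.75 and 12.02 in marrow and 6.44, 7.97 and 11.10 in tumours, a difference of -3.68 (SE 0.46). The tissues did not overlap, but the highest tumour (11.10) lay next to the lowest marrow sample (11.25). Evl, an actin regulator of the Ena/VASP family, was the higher member (2.65, SE 0.07), and Pik3cd, the leukocyte PI3-kinase, was not called (-0.20). The list mean was 8.77 in wild-type tumour 1 and 7.55 in wild-type tumour 5, against a tumour median of 6.67 and a marrow range of 9.76 to 10.32. Without these 2 tumours the 2-fold counts were 3105 higher and 2324 lower.

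Antigen presentation was lower in most tumours and close to marrow in a few. MHC class I genes had 11 of 15 lower and 0 higher (12 at level 7, median -2.33), with 7 not overlapping. H2-K1, a class I heavy chain, was at 11.61, 12.51, 11.95, 12.05 and 12.37 in marrow and at 8.0, 9.33 and 11.80 in tumours (-2.62, SE 0.35), and the highest tumour overlapped with marrow. B2m, the light chain, differed by -2.18 (SE 0.32) and the immunoproteasome subunit Psmb9 by -3.35 (SE 0.34). The chaperones Canx (-0.01), Calr (-0.20) and Pdia3 (-0.23), which serve all secretory proteins, were not called. MHC class II genes had 8 of 8 lower (6 at level 7, median -2.70), 3 of them without overlap. H2-Aa ranged from 5.10 to 11.29 over tumours and from 10.37 to 11.34 over marrow samples (-2.94, SE 0.60). Wild-type tumour 5 had the highest list means for class I (9.14) and class II (7.68) and wild-type tumour 1 the next highest (8.49 and 6.76). Interferon-response genes had 13 of 19 lower and 0 higher (9 at level 7, median -1.84), led by Rsad2 (-4.97, SE 0.44).

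Monocyte and macrophage genes went both ways. Of 23 measured members, 17 at level 7, 6 were higher and 11 lower (median -0.82). C1qa, a complement chain, had 8.21, 7.82, 7.80, 8.59 and 7.44 in marrow and 8.49, 9.32 and 10.58 in tumours, a difference of 1.41 (SE 0.23), with overlap. C1qb (1.17), C1qc (1.07), Ms4a7 (1.36, SE 0.22), Apoe (1.37, SE 0.21) and Cd5l (2.73, SE 0.43) were the others. F13a1, of monocytes, differed by -4.81 (SE 0.55), Cd163, a haemoglobin scavenger receptor of resident macrophages, by -3.07 (SE 0.46), and Lyz2, lysozyme of all myeloid cells, by -1.88 (SE 0.20). Csf1r (-1.67, SE 0.23) and Adgre1 (-1.64, SE 0.31), general macrophage markers, were lower. Chemokines and their receptors had 9 of 17 lower and 1 higher (5 at level 7, median -1.12, or -0.73 without deficient marrow sample 3, -0.52 in wild-type samples and -4.04 over those at level 7). Cxcl12, which holds blood cells in marrow, had 9.61, 10.18, 10.31, 10.54 and 10.01 in marrow and 4.17 to 8.17 in tumours (-4.52, SE 0.45). Its receptor Cxcr4 differed by -3.83 (SE 0.23), and Ackr3, the other receptor of Cxcl12, by 2.29 (SE 0.27), at levels below 7 in both tissues.

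Some related genes took opposite sides. In 26 families with at least 2 measured members, chosen because members are known from neural or blood cells and so no test of such a split, 88 genes were measured and 71 reached level 7. Of the 88, 31 were higher and 32 lower, and 13 families had members in both directions. In membrane fusion, Snap25 (7.99, SE 0.18) was opposed by Snap23 (-3.20, SE 0.19), Stx1a (3.02) by Stx11 (-5.35, SE 0.27) and Stx3 (-2.97), Vamp2 (2.44) by Vamp8 (-4.66, SE 0.29), and Unc13b (2.86) by Unc13d (-2.87, below 7 in both tissues). The former serve synapses and the latter granule release of blood cells, as far as their known roles go. Snap23 had 8.24, 8.90, 8.78, 8.98 and 9.19 in marrow and 4.88, 5.60 and 6.35 in tumours. Among splicing regulators Ptbp2, the neural form, was 3.02 higher (SE 0.17), Ptbp3 was at -2.33 (SE 0.13) and Ptbp1 at -0.25. Among beta tubulins Tubb3 and Tubb2b (7.17) were opposed by Tubb1 (-6.90, SE 0.21), the tubulin of platelets.

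The D cyclins also took opposite sides. Ccnd1 had 5.59, 5.55, 5.75, 5.91 and 6.53 in marrow and 11.31, 12.10 and 12.49 in tumours, a difference of 6.17 (SE 0.13, 72.1-fold). Ccnd3 had 10.42, 10.57, 10.58, 10.56 and 10.44 in marrow and 5.88, 6.51 and 6.77 in tumours, a difference of -4.08 (SE 0.12), and Ccnd2 differed by -2.26 with overlap. Gata3 (5.03) and Gata2 were opposed by Gata1. Coro1c (2.01) and Coro1a (-3.98), Pls3 (2.01, with overlap) and Lcp1 (-4.19), Vav2 (1.38) and Vav1 (-3.39), and Gnai1 (3.79) and Gnai2 (-2.59) are actin and signalling proteins that took opposite sides, of which Pls3 and Vav2 lay below 7 in both tissues. In the ELAV family all 4 measured members were higher, but Elavl1, the member found in all tissues, was not settled. Its brightest probe set was 3.61 higher and another probe set of 7.84 in tumours and 8.99 in marrow differed by -1.17. Rac1 likewise had probe sets at 0.09 and -1.02.

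**Figure D5:**
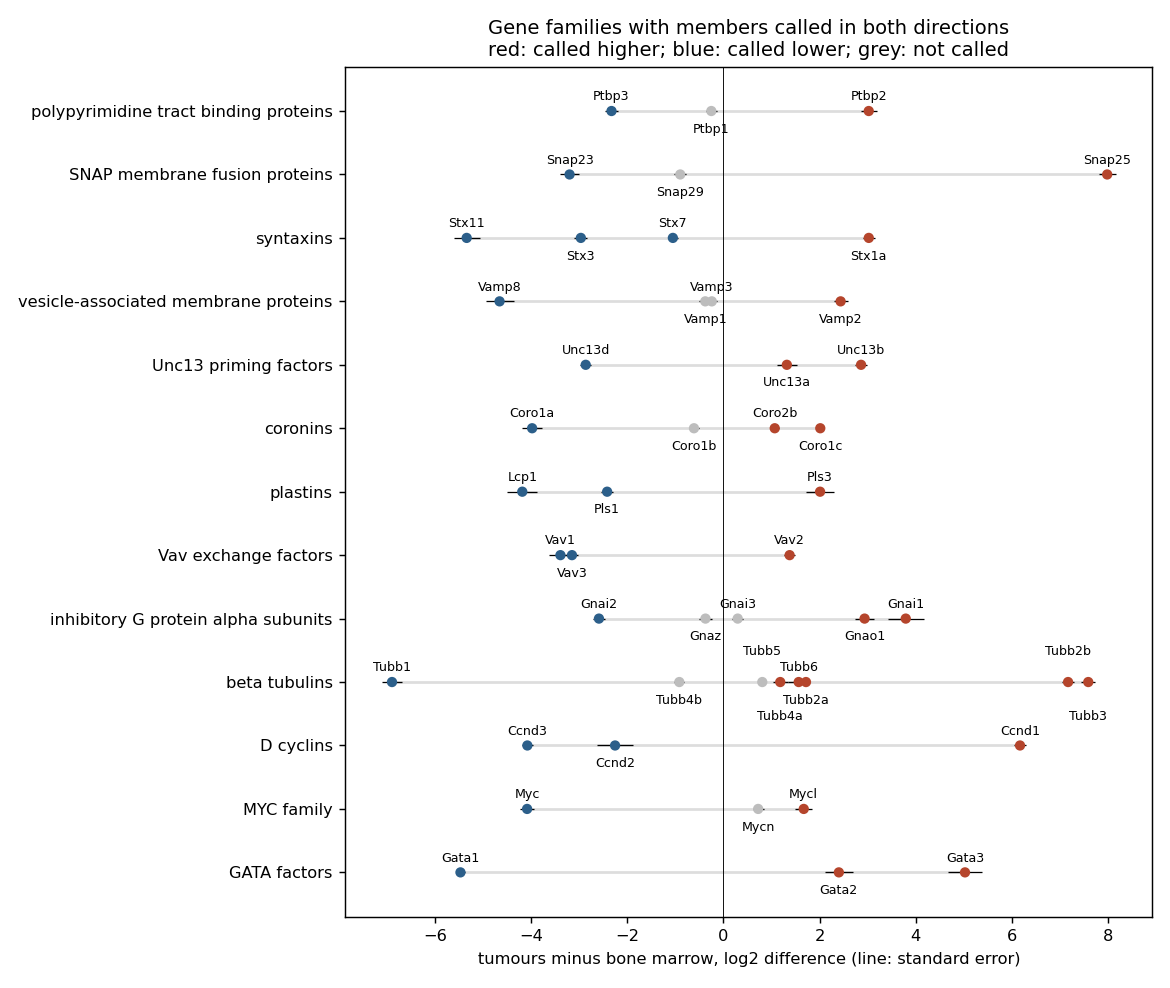
Tumour minus marrow log2 difference (points, with standard error) of members of 13 gene families that held members called in both directions. Snap25, Tubb3 and Tubb2b lie farthest to the right at 7.99, 7.59 and 7.17, and Tubb1, Gata1 and Stx11 farthest to the left at -6.90, -5.48 and -5.35.

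In the MYC and MAX network 3 of 13 members were higher and 2 lower (11 at level 7, median -0.17). That median was -0.046 without wild-type marrow sample 1, -0.46 under both centrings, -0.078 in wild-type samples and 0.029 in deficient ones, so no direction can be given for it. Myc had 8.98, 9.26, 9.37, 8.81 and 9.35 in marrow and 4.46, 5.12 and 5.56 in tumours, a difference of -4.09 (SE 0.14, limma adjusted p = 1.19e-21). Mycn, which the transgene copies, had 6.93, 6.59, 6.24, 7.40 and 6.99 in marrow and 7.27, 7.54 and 7.86 in tumours, a difference of 0.72 (SE 0.11) that did not reach 2-fold. Its other probe sets differed by -0.12 and -0.22, at levels under 6, so its probe sets did not agree in sign. The transgene is of human origin in this model, and whether mouse probe sets read it was not tested. Mxd1, an antagonist that pairs with MAX in differentiating cells, was lower (-4.85, SE 0.15), and the MAX partners Mga (1.78, SE 0.11) and Mnt (1.16, SE 0.10) were higher. MYC targets and ribosome biogenesis genes had 11 of 26 higher and 0 lower (26 at level 7, median 0.77). Srm, spermidine synthase, had 9.31, 9.15, 9.18, 8.80 and 8.98 in marrow and 10.84, 11.23 and 11.59 in tumours (2.14, SE 0.10). Gar1 (1.71, SE 0.09) is a protein of small nucleolar particles and Cdk4, with the 4 E-boxes shown above, was 1.53 higher (SE 0.10). Odc1, the enzyme before Srm in polyamine synthesis and a textbook MYC target, differed by -0.86 (SE 0.08). The median of this list was 0.49 after centring on the median gene.

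Cell cycle genes were high in both tissues. Of 34 members, 33 at level 7, 0 were higher and 3 lower at 2-fold (median -0.32, or -0.61 and -0.62 under the centrings). Without overlap 3 of 34 were higher and 12 lower. Cdc6 (-2.17, SE 0.14), a replication licensing factor, Tk1 (-2.08, SE 0.14), thymidine kinase, and Ccne2 (-1.71, SE 0.16), an E cyclin, were the 3 and act around S phase. Mki67 differed by -0.96, Top2a by -0.16, Cdk1 by 0.09 and Bub1b by 0.87. List means were 9.68 to 10.15 in tumours and 10.11 to 10.39 in marrow.

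Housekeeping programmes were near equal. The 8 genes of highest level with a 95% interval within 0.5 log2 units of 0 were Tpt1, Rps29, Eef1a1, Rps28, Rpl41, Rplp2, Actb and Rps3a1, and signal this bright can be close to saturation on an array. Tpt1, a translationally controlled protein, had 13.67, 13.63, 13.67, 13.66 and 13.68 in marrow and 13.56, 13.60 and 13.68 in tumours, a difference of -0.07 (95% interval -0.14 to 0.01). Actb differed by -0.23 (SE 0.06), and Eef1a1, a translation factor, by 0.27 (SE 0.04), turning to -0.02 under centring on the median gene and -0.03 on ribosomal protein and proteasome genes. Ribosomal proteins had 2 of 31 higher and 0 lower (29 at level 7, median 0.18), proteasome core genes 1 of 14 higher (14 at level 7, median 0.38) and oxidative phosphorylation genes 0 of 28 in either direction (27 at level 7, median 0.26). Centring on the median gene moved these medians to -0.11, 0.09 and -0.03, so no direction can be given for them. The ribosomal exceptions were Rpl37 (1.80, SE 0.14) and Rpl12 (1.54, SE 0.15), and the proteasome one was Psmb3 (1.17, SE 0.10).

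Energy and stress lists held members called in both directions. In glycolysis and hypoxia response 3 of 21 were higher and 4 lower (17 at level 7, median 0.22, and -0.07 after either centring). These counts are close to the shares over all genes, 16.9% higher and 12.7% lower, so no split particular to this list can be read from them. Adm, encoding the vasodilator adrenomedullin, was 3.25 higher (SE 0.39), ranging from 5.45 to 9.32 over tumours, Vegfa 1.84 higher (SE 0.23) and the phosphofructokinase Pfkp 1.39 (SE 0.16). The glucose transporter Slc2a3 (-1.94, SE 0.17) and the hexokinase Hk1 (-1.63, SE 0.08) were lower. Among immediate early genes 3 of 18 were higher and 10 lower (14 at level 7, median -1.56, or -0.85 in wild-type samples). Here the higher count is close to the share over all genes and the lower count is above it. Zfp36 (-3.76, SE 0.21) and Klf2 (-3.32, SE 0.22) led the lower members. Jun was higher (2.35, SE 0.36), at 8.48, 8.81 and 10.27 in tumours, but its marrow values were 6.10, 5.01, 5.93, 5.95 and 9.62, so deficient marrow sample 3 lay within the tumour range. That sample also had the highest list mean, 8.65 against 7.48 to 7.92 in the other 4.

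Apoptosis, death receptor and inflammasome genes had 18 of 27 lower and 0 higher (19 at level 7, median -1.64). Casp8, the initiator caspase of death receptors, had 9.30 and 9.62 in wild-type and 9.17, 9.24 and 9.01 in deficient marrow, and 4.68, 5.68 and 6.91 in tumours, a difference of -3.54 (SE 0.21, 11.7-fold, limma adjusted p = 7.98e-16). It was -3.58 within wild-type and -3.52 within deficient samples. Birc3 (-3.42, SE 0.27), an inhibitor of apoptosis, Pycard (-3.07, SE 0.48), Casp1 (-3.03, SE 0.30) and Gsdmd (-3.02, SE 0.14), of the inflammasome, were lower by similar amounts. The survival proteins Bcl2l1 (-2.56, SE 0.10) and Mcl1 (-1.49, SE 0.09) were lower too. Many of these genes are known to be high in leukocytes, whose own genes had a median of -3.29, and the part of cell mixture in these differences was not tested.

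Whether the tissue difference depended on genotype was asked of all genes. A test of the interaction of tissue and genotype called 58 of 18193 genes (0.319%) at an adjusted p under 0.05, and 1424 had an unadjusted p under 0.05. The 5 of smallest p were Ddx4, Cd59a, Trgv4, Podxl and Armcx2. For Cd59a, a complement inhibitor, the difference was -1.65 in wild-type and -3.75 in deficient samples, and for Podxl, a surface sialomucin, -0.53 and 1.69. Podxl means in wild-type samples were 7.61 for tumours and 8.14 for marrow, and in deficient samples 7.86 and 6.17. Sex was not given in the sources used here, and in marrow it moved with the genotype label. Xist, the RNA of the inactive X chromosome, was at 5.11 and 6.20 in the wild-type and 11.64, 11.79 and 12.23 in the deficient marrow samples. The Y-linked Eif2s3y was at 9.56 and 9.11 against 2.58, 2.96 and 2.50, and the Y-linked Kdm5d and Uty went the same way. In the tumours the group means were 8.12 and 9.25 for Xist and 6.13 and 5.05 for Eif2s3y (wild type and deficient). In marrow, genotype and sex therefore cannot be told apart, and neither can they in the interaction. The count depended on the samples used, at 84, 44 and 76 genes without deficient marrow samples 1, 2 and 3. Leaving out a wild-type marrow sample leaves 1 in that group, so no count is given for it. The count also depended on the tumours. It was 12 when the 10 tumours with title numbers below 100 were left out and all marrow samples were kept.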

How the data were processed

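Per the submitters' processing notes, the authors deposited log2 values from RMA in Partek 6.6, on mouse arrays labelled from total RNA with 2 amplification cycles per the labels. RMA makes all arrays share 1 signal distribution, so a difference is relative to the rest of the transcripts, and low signals are compressed. Of 45101 probe sets, 34945 had 1 gene symbol, 932 several, 9160 none and 64 were controls; 34741 symbols were updated by Entrez number. Genes (18193, of which 9010 had more than 1 probe set) entered 1 model of tissue and genotype in limma 3.58.1 (R 4.3.3), with Benjamini-Hochberg adjustment over all genes. The fit was tested on simulated data.

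The members and gene lists were chosen with earlier results of these data known. Genes named are the 12 largest differences each way, leading and contrary members of each list, members of the families, the 8 brightest equal genes, the 5 smallest interaction p-values, the edges of the level rule, and Casp8, Mycn, Myc, Th, Dbh, Ptprc and Gata1. Other list members were added after their values were seen, to show range within a list. List counts run over all measured members. Alternatives changed the probe set rule, centring, level, call rule, variance model, samples and covariates. Scan dates were not given in the sources used here. All marrow samples have title numbers of 100 or more, so a fit on that range was run.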

Additional observations from a re-analysis of the deposited data

Results flagged for a closer look

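Among the 262 sets of 5 marrow values tested (every list mean and every named gene), 1 sample stood apart from the other 4 in 24, with a gap above Dixon's 95% critical value for 5 samples. Chance gives about 1 in 20 sets for independent values, and these sets share samples. Wild-type sample 1 stood apart in 9 and deficient sample 3 in 9 sets, against 1 to 3 for each of the others. Of list means, neuronal RNA-binding proteins had 4.79 in deficient sample 1 against 4.63 to 4.66 in the others, endothelial cells had 5.58 in deficient sample 3 against 5.84 to 5.93 in the others, skeletal muscle had 4.81 in wild-type sample 1 against 4.53 to 4.58 in the others, haematopoietic transcription factors had 8.29 in wild-type sample 1 against 8.58 to 8.61 in the others, cell cycle had 10.11 in deficient sample 3 against 10.35 to 10.39 in the others and ribosomal proteins had 11.68 in wild-type sample 1 against 11.47 to 11.53 in the others. Wild-type sample 1 stood apart for Coro1a 11.67 (11.81 to 11.84 in the others), Fscn1 3.53 (3.83 to 3.93 in the others), Mpo 11.27 (11.71 to 11.86 in the others), Stx3 7.51 (8.10 to 8.24 in the others), Tfap2b 4.16 (2.78 to 3.11 in the others) and Unc13d 6.08 (6.94 to 7.19 in the others). Wild-type sample 2 stood apart for Elavl4 3.61 (3.94 to 4.06 in the others). Deficient sample 1 stood apart for Alas2 12.70 (12.44 to 12.49 in the others). Deficient sample 2 stood apart for Car2 13.14 (13.45 to 13.55 in the others), Cpe 3.91 (3.34 to 3.48 in the others) and Hbb-b2 11.56 (11.42 to 11.46 in the others). Deficient sample 3 stood apart for Cdh2 3.19 (5.07 to 5.62 in the others), Coro1c 7.35 (7.78 to 7.91 in the others), Epb42 8.60 (9.19 to 9.42 in the others), Fn1 10.69 (9.88 to 10.08 in the others), Gfra3 4.12 (4.96 to 5.10 in the others), Jun 9.62 (5.01 to 6.10 in the others) and Nsf 7.74 (8.18 to 8.32 in the others).

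The tissue difference differed between the samples labelled wild type and deficient, by the limma interaction test over all genes, for 6 of the named genes. In marrow these labels cannot be told apart from sex, by the levels of Xist and Y-linked genes. For Armcx2 it was 4.59 in wild-type and 3.65 in deficient samples, a change of -0.94 (adjusted p = 0.000511). For Cd59a it was -1.65 in wild-type and -3.75 in deficient samples, a change of -2.10 (adjusted p = 8.51e-05). For Ddx4 it was -0.44 in wild-type and -1.54 in deficient samples, a change of -1.10 (adjusted p = 3.88e-05). For Ibsp it was -4.60 in wild-type and -5.74 in deficient samples, a change of -1.14 (adjusted p = 0.0421). For Podxl it was -0.53 in wild-type and 1.69 in deficient samples, a change of 2.22 (adjusted p = 0.000511). For Trgv4 it was -4.47 in wild-type and -1.40 in deficient samples, a change of 3.08 (adjusted p = 0.000511). Of the 6, Ddx4, Cd59a, Trgv4, Podxl and Armcx2 were named for their p in this test. Ddx4 and Trgv4 had a mean below 7 in both tissues, and Ddx4 was near the floor of the array, at 2.47 in tumours and 3.57 in marrow. Each rests on 2 wild-type and 3 deficient marrow samples.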

How the results depend on the processing

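No paired analysis was possible because the groups share no replicate numbers in the labels. Of 4327 recomputed values of 217 named genes, 35 no longer met the threshold (limma adjusted p under 0.05) and 24 newly met it. A further 15 changed sign where the main or the recomputed value met it. The other 4253 kept their side of the threshold and, where they met it, their direction. Sign changes of values that met it in neither fit are counted in the 4253 and are not listed below. The 2-fold counts were 1350 higher and 1141 lower at a 4-fold minimum and 6211 and 4665 over single probe sets, which are more numerous than genes, and stayed within 1.5 times the main counts otherwise. Leaving out each marrow sample gave 3026 to 3129 higher and 2274 to 2339 lower, and 32 to 422 interaction calls, with 12 when 10 tumours of low title number were left out. Single tumours were not left out in turn, since their groups exceed 5. The settings without 2 tumours high in leukocyte genes and without 3 high in muscle genes were chosen after seeing the data and moved no list median beyond its spread between samples. Of 897 recomputed list medians, those below moved by more than that spread, in log2 units, and the cause was not tested beyond what each setting changes by construction. Centring on the median gene gave sympathoadrenal transcription factors 3.93, catecholamine synthesis / storage and breakdown 0.74, neuronal cytoskeleton 5.74, synaptic vesicle release 2.84, ion channels and transmitter receptors 2.57, neuronal RNA-binding proteins 3.82, axon guidance and neural adhesion 3.02, oncofetal and imprinted growth genes 2.51, neuroblastoma receptor kinases and co-receptors 0.21, Schwann cells and glia -0.78, adrenal cortex -0.52, kidney -0.60, bone cells -0.77, primary granules of neutrophil precursors -4.87, T and NK cells -1.43, stem and progenitor cells -0.98, haematopoietic transcription factors -3.20, cell cycle -0.61, MYC targets and ribosome biogenesis 0.49, MYC and MAX network -0.46, ribosomal proteins -0.11, proteasome core 0.090, oxidative phosphorylation -0.031, glycolysis and hypoxia response -0.066 and apoptosis / death receptors and inflammasome -1.93, and turned Eef1a1 -0.021, Rac1 -0.20, Rpl41 -0.092, Rplp2 -0.10, Rps28 -0.11 and Rps3a1 -0.17. Centring on ribosomal protein and proteasome genes gave sympathoadrenal transcription factors 3.92, catecholamine synthesis / storage and breakdown 0.74, neuronal cytoskeleton 5.74, synaptic vesicle release 2.84, ion channels and transmitter receptors 2.56, neuronal RNA-binding proteins 3.81, axon guidance and neural adhesion 3.01, oncofetal and imprinted growth genes 2.51, neuroblastoma receptor kinases and co-receptors 0.20, Schwann cells and glia -0.78, adrenal cortex -0.53, kidney -0.60, bone cells -0.78, primary granules of neutrophil precursors -4.88, T and NK cells -1.44, eosinophils / basophils and mast cells -3.93, stem and progenitor cells -0.99, haematopoietic transcription factors -3.21, cell cycle -0.62, MYC targets and ribosome biogenesis 0.48, MYC and MAX network -0.46, ribosomal proteins -0.12, proteasome core 0.082, oxidative phosphorylation -0.040, glycolysis and hypoxia response -0.075 and apoptosis / death receptors and inflammasome -1.94, and turned Eef1a1 -0.029, Rac1 -0.21, Rpl41 -0.10, Rplp2 -0.11, Rps28 -0.12 and Rps3a1 -0.18. The mean of all probe sets of a gene gave sympathoadrenal transcription factors 3.48, neuronal cytoskeleton 4.22, synaptic vesicle release 1.81, ion channels and transmitter receptors 1.61, neuronal RNA-binding proteins 2.98, axon guidance and neural adhesion 1.79, oncofetal and imprinted growth genes 1.89, neuroblastoma receptor kinases and co-receptors 0.13, basement membrane 1.07, erythroid cells and haem synthesis -3.90, megakaryocytes and platelets -3.48, stem and progenitor cells -1.10 and apoptosis / death receptors and inflammasome -1.32, and turned Rac1 -0.34. Testing only genes at level 7 leaves fewer members. Many of them passed through the tissue where they are high, so a larger difference is partly built in. That setting gave sympathoadrenal transcription factors 5.03, catecholamine synthesis / storage and breakdown 2.25, dense-core granule proteins and neuropeptides 4.97, neuronal cytoskeleton 6.20, synaptic vesicle release 3.92, ion channels and transmitter receptors 4.06, neuronal RNA-binding proteins 4.52, axon guidance and neural adhesion 4.13, oncofetal and imprinted growth genes 5.52, neuroblastoma receptor kinases and co-receptors 3.17, endothelial cells -0.81, pericytes and smooth muscle 1.63, Schwann cells and glia -0.73, bone cells -3.01, T and NK cells -3.32, eosinophils / basophils and mast cells -4.61, stem and progenitor cells -0.37, haematopoietic transcription factors -3.89, interferon response -2.40, chemokines and receptors -4.04 and apoptosis / death receptors and inflammasome -2.14. Wild-type samples alone gave sympathoadrenal transcription factors 4.02, dense-core granule proteins and neuropeptides 3.52, oncofetal and imprinted growth genes 3.12, neuroblastoma receptor kinases and co-receptors 0.19, pericytes and smooth muscle 0.51, adrenal cortex -0.49, primary granules of neutrophil precursors -4.32, secondary and tertiary granules and mature neutrophils -7.43, T and NK cells -0.92, stem and progenitor cells -0.98, interferon response -1.27, chemokines and receptors -0.52 and immediate early genes -0.85, and turned Podxl -0.53. Deficient samples alone gave MYC and MAX network 0.029. The probe set highest in either tissue gave stem and progenitor cells -1.27 and haematopoietic transcription factors -3.35, and turned Rac1 -1.02. Over the marrow samples left out in turn, T and NK cells ran from -1.22 to -0.93, chemokines and receptors ran from -1.26 to -0.73 and adrenal cortex ran from -0.30 to -0.16. The MYC and MAX network ran from -0.16 to -0.046, which stayed within its spread. Signal near the floor of the array, in the tissue where a gene is low, limits the size of the largest differences.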
